A study of Mus musculus with 9 samples.

Results

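Itaconate, nitric oxide and arginine metabolism was followed through 10 genes chosen by symbol in a table of 55906 genes, namely Acod1, Nos2, Arg1, Arg2, Ass1, Asl, Slc7a2, Gch1, Odc1 and Idh1. The table came from RNA sequencing of BV2, an immortalized mouse microglia line labelled wildtype. Its 3 groups had 3 libraries each: untreated cells (Control), cells stimulated with LPS (lipopolysaccharide, a bacterial cell wall component sensed by TLR4), and cells stimulated with LPS that also received Pilo (LPS+Pilo). The sources used here do not give the dose or duration of either agent or spell out the name Pilo, and no library had Pilo without LPS. The study asked how Pilo alters the response of the cells to LPS. The titles call the replicates biological but do not say whether cultures were separate, so p-values measure the spread between these libraries. In bulk samples, fewer cells that express a gene and less RNA per cell cannot be told apart.

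In activated macrophages and microglia, the enzyme encoded by Acod1 takes cis-aconitate out of the citric acid cycle and turns it into itaconate, a metabolite that inhibits succinate dehydrogenase and modifies KEAP1. Arginine, which enters through cationic amino acid transporters such as SLC7A2, is split between competing enzymes: inducible nitric oxide synthase (Nos2), which yields nitric oxide and citrulline, and the arginases (Arg1, Arg2), which yield urea and ornithine. GTP cyclohydrolase (Gch1) supplies the tetrahydrobiopterin that nitric oxide synthase needs, argininosuccinate synthase (Ass1) and lyase (Asl) rebuild arginine from citrulline, and ornithine decarboxylase (Odc1) starts polyamine synthesis.

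Levels are in TPM (transcripts scaled to a fixed total per library), which allow for transcript length and may be compared between genes. A gene was tested if 3 or more of the 9 libraries reached 1 TPM, a filter that 8 of the 10 genes passed. Nos2 passed only through treated libraries, so its difference from Control is tied to that filter. Arg1 and Arg2 did not pass. Fold changes are differences of log2(TPM + 1) with their standard error (SE) in limma. Adjusted p-values are Benjamini-Hochberg values over 11260 genes, and genes under 0.05 were called.

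Promoter sequences of 5 of the 10 genes were matched in RefSeq (build GRCm38.p6). Those of Acod1, Gch1 and Odc1 are shown, the matched genes that rose with LPS. Each runs 5′ to 3′ on the strand of the gene, from 250 bases before the start site to 50 from it. Capitals mark matches to the motifs searched.
Acod1, chr14:103046762-103047061, + strand: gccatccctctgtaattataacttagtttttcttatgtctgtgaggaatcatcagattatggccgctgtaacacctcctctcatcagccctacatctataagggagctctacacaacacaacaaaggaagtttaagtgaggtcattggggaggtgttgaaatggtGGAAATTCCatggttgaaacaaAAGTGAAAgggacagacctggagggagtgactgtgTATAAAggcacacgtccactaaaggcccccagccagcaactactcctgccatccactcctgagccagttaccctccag
Gch1, chr14:47189364-47189663, - strand: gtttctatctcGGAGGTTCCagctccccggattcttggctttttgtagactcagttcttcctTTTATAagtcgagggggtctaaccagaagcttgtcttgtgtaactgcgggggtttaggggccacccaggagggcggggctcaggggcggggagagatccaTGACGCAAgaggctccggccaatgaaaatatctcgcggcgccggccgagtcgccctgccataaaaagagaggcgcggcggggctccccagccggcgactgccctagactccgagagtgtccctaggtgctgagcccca
Odc1, chr12:17544623-17544922, + strand: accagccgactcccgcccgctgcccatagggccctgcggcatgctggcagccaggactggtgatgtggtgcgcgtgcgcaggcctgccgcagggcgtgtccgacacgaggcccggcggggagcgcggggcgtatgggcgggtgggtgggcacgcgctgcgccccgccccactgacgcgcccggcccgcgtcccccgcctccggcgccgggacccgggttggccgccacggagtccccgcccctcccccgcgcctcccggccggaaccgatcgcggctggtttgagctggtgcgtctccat
In Acod1 the capitals mark a kappa B-like motif (GGANNNTCC) at bases -85 to -77 from the start site. They also mark an IRF-like motif (AANNGAAA) at -63 to -56 and a TATA box (TATAAA) at -28 to -23. In Gch1 they mark a kappa B-like motif at -239 to -231, TATAAA on the opposite strand at -188 to -183 and a CRE-like motif (TGACGNNA) at -88 to -81. None of these matches shared a base, and both strands were searched. Of 32851 promoters of this length, 8.62% held GGANNNTCC, 23.9% AANNGAAA, 13.6% TATAAA and 6.61% TGACGNNA. The promoter of Ass1 held an E-box (CACGTG, in 7.15% of promoters) at -36 to -31, and that of Odc1 held none of the motifs. A kappa B-like motif also lay in the second of the Idh1 promoters, at -146 to -138, and Idh1 did not pass the test in any comparison. A match is a description of the letters and not a binding site. TGANTCA (AP-1, in 7.81% of promoters) and TTGCNNAA (C/EBP-like, in 10.8%) were not found in the 6 matched promoters.

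The first comparison asked what LPS did to these genes. Acod1, Nos2, Odc1 and Gch1 rose, whereas Asl, Ass1, Slc7a2 and Idh1 did not pass the test. These were 4 of 8 tested genes higher and 0 lower, beside 4.12% of all tested genes called higher and 3.64% called lower. The median log2 fold change was 0.46 over the 8 genes and 0.07 over all genes tested. The count and the median include Nos2, which passed the filter only through treated libraries.

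Acod1 stood at 30.8, 13.6 and 19.1 TPM in Control replicates 1 to 3, and at 425, 344 and 249 TPM in LPS. Every LPS library was above every Control library, and the 3 LPS libraries were themselves widely spaced. The group means were 21.1 ± 8.78 and 339 ± 88.0 TPM (SD, n = 3), a log2 fold change of 3.98 ± 0.27 (SE; limma, adjusted p = 2.71e-05), the fifth highest of 11260. By level, Acod1 moved from rank 4213 of the tested genes in Control to rank 468 in LPS. The ratio of the mean TPM was 16.04.

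Nos2 was near 0 in Control, at 0.11, 0.08 and 0.02 TPM, and at 12.9, 5.86 and 4.32 TPM in LPS. The groups did not overlap, but replicate 1 was far above the other 2 LPS libraries. The log2 fold change was 2.90 ± 0.33 (limma, adjusted p = 0.000728), and it depends on the pseudocount: with 0.1 in place of 1 it was 5.40. Although induced, Nos2 remained a gene of modest level, with a mean of 7.70 ± 4.58 TPM against 339 TPM for Acod1, at rank 6899 among the tested genes.

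Gch1, whose product makes the cofactor precursor for nitric oxide synthase, stood at 10.6, 10.1 and 9.95 TPM in Control and at 18.6, 17.0 and 15.3 TPM in LPS. All LPS values were higher, and the Control values lay close together. The rise was 0.68 ± 0.11 (limma, adjusted p = 0.00476). Processed pseudogenes lie within the annotated Gch1 gene, and their reads may not have been separated.

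Odc1, the rate-limiting gene of polyamine synthesis, was already abundant in Control, at 252, 189.9 and 217 TPM. In LPS it reached 527, 517 and 389 TPM, without overlap. The rise was 1.11 ± 0.14 (limma, adjusted p = 0.00133), and Odc1 was the most abundant of the 10 genes in each of the 3 groups.

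The arginine-recycling pair did not pass the test with LPS, which does not show that it stayed as it was. Ass1 was at 16.7, 18.2 and 16.6 TPM in Control and at 22.9, 19.1 and 18.9 TPM in LPS. Although all 3 LPS values were higher, the difference did not pass (0.22 ± 0.13; 95% confidence interval -0.07 to 0.52; limma, adjusted p = 0.352). Groups without overlap in this direction made up 11.2% of all tested genes. Asl was at 53.7, 61.5 and 66.1 TPM in Control and at 66.5, 65.3 and 64.4 TPM in LPS, with overlap (0.12 ± 0.09; interval -0.09 to 0.32; adjusted p = 0.476 in limma).

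Slc7a2, a cationic amino acid transporter gene linked to arginine uptake in activated macrophages, was low throughout, between 2.25 and 4.76 TPM. Its Control and LPS libraries overlapped (0.24 ± 0.23; interval -0.28 to 0.75; limma, adjusted p = 0.573). An RNA annotated on the opposite strand overlaps this gene. Slc7a1, the constitutive cationic transporter gene, was higher in every library than Slc7a2 in any, at 19.9 to 38.9 TPM. Idh1, which encodes the cytosolic NADP-dependent isocitrate dehydrogenase, ranged from 17.6 to 25.5 TPM in Control and from 18.0 to 26.8 TPM in LPS (0.02 ± 0.18; interval -0.38 to 0.42; limma, adjusted p = 0.964).

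The arginases were barely present. Arg1, the cytosolic enzyme and a common marker of alternative activation, was listed at 0.15, 0.1 and 0.27 TPM in Control, at 0.04, 0 and 0.09 TPM in LPS and at 0.3, 0.12 and 0.03 TPM in LPS+Pilo. Arg2, the mitochondrial enzyme, was listed at 0.12, 0.03 and 0.04 TPM in Control. It was at 0 in LPS replicates 2 and 3 and in LPS+Pilo replicates 1 and 3, and at 0.04 and 0.03 TPM in the remaining 2 treated libraries. In every treated library Nos2 was above both arginase genes, and in Control all 3 were under 0.5 TPM. Arg1 was at 0.3 TPM or less in every library, near the floor of TPM given with 2 decimals. The order of its groups is therefore not read as a difference. In the limma fit without a filter, over 21250 genes, neither gene was called in any comparison. There Arg1 differed by -0.17 ± 0.09 with LPS (adjusted p = 0.453) and Arg2 by -0.07 ± 0.04 (adjusted p = 0.426).

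**Figure D1:**
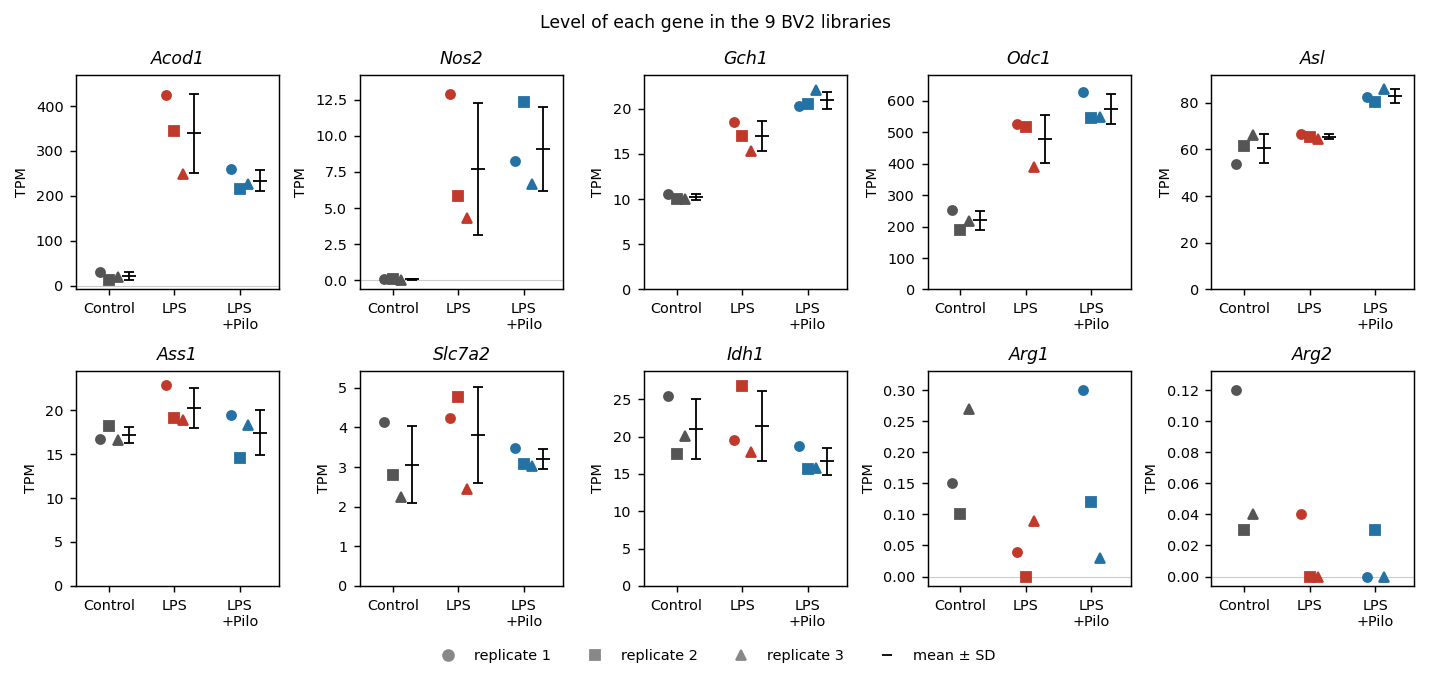
TPM of each of the 10 genes in the 9 libraries (1 point per library, shape by replicate number, own vertical scale per gene), with the mean ± SD of each group except for Arg1 and Arg2, which are listed at or near 0. Acod1, Nos2, Gch1 and Odc1 lie higher in all treated libraries than in any Control library, and Asl lies higher in LPS+Pilo than in both other groups.

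The second comparison asked what Pilo added to LPS. None of the 8 tested genes passed, with 0 higher and 0 lower in limma, beside 0.0444% of all tested genes called in either direction (0.00888% higher and 0.0355% lower). At an unadjusted p under 0.05, 2 of the 8 were higher (Asl and Gch1) and 0 lower, against 342 higher and 419 lower of 11260 genes. The median was 0.05 over the 8 genes and -0.05 over all genes tested. Asl, Gch1 and Odc1 were higher in every LPS+Pilo library than in any LPS library, an arrangement that 5.58% of all tested genes showed in this direction.

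Asl reached 82.4, 80.2 and 86.1 TPM in LPS+Pilo, above all 6 other libraries. The difference from LPS was 0.34 ± 0.09 (interval 0.13 to 0.54; limma, unadjusted p = 0.00447, adjusted p = 0.480). Gch1 was at 20.3, 20.5 and 22.0 TPM, with a difference of 0.29 ± 0.11 (interval 0.05 to 0.53; unadjusted p = 0.0231, adjusted p = 0.604 in limma). Odc1 was at 629, 545 and 549 TPM (0.28 ± 0.14; interval -0.04 to 0.59; limma, adjusted p = 0.771), and this difference was 0.13 without LPS replicate 3.

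Acod1 had the opposite sign. It stood at 259.8, 215 and 226 TPM in LPS+Pilo, below LPS replicates 1 and 2 but on both sides of LPS replicate 3. The difference was -0.51 ± 0.27 (interval -1.11 to 0.10; limma, adjusted p = 0.779), and ran from -0.71 without LPS replicate 3 to -0.33 without LPS replicate 1. Nos2, at 8.24, 12.3 and 6.69 TPM, lay within the spread of the LPS libraries (0.30 ± 0.33; interval -0.44 to 1.04; limma, adjusted p = 0.906). That value was 0.70 without LPS replicate 1 and 0.0070 without LPS replicate 3. A p that misses the threshold does not show that Pilo left a gene as it was, and each interval gives the sizes that remain possible.

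Ass1 was at 19.4, 14.6 and 18.3 TPM in LPS+Pilo (-0.21 ± 0.13), Slc7a2 at 3.49, 3.07 and 3.03 TPM (-0.17 ± 0.23) and Idh1 at 18.8, 15.6 and 15.8 TPM (-0.33 ± 0.18). Each overlapped LPS, with limma adjusted p of 0.830, 0.926 and 0.792. The Idh1 interval ran from -0.72 to 0.07, the Ass1 interval from -0.51 to 0.09 and the Slc7a2 interval from -0.68 to 0.35. These values leaned on single libraries. Ass1 was -0.13 without LPS replicate 1 and -0.094 without LPS+Pilo replicate 2. Slc7a2 was -0.089 without LPS replicate 1, -0.019 without replicate 2 and -0.39 without replicate 3. Idh1 was -0.16 without LPS replicate 2.

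LPS replicate 3 was the lowest LPS library for all 8 tested genes, and replicate 1 was the highest for 6 of them. Control replicate 1 was the highest Control library for 6 of the 8. On the second principal component of all tested genes, Control replicate 1 lay at 34.0 and LPS replicate 3 at -21.5, the 2 ends of the axis. The part of this spread between libraries in the differences above was not tested. With both libraries left out, an alternative chosen after seeing the data, Acod1, Nos2, Odc1 and Gch1 were still called in LPS against Control, and 0 of the 8 were called in LPS+Pilo against LPS.

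The third comparison set LPS+Pilo against Control. It shares the Control libraries with the first and the LPS+Pilo libraries with the second, so the 3 are not independent. Acod1 rose by 3.48 ± 0.27 (limma, adjusted p = 4.96e-05), Nos2 by 3.20 ± 0.33 (0.000304), Odc1 by 1.39 ± 0.14 (0.000254), Gch1 by 0.97 ± 0.11 (0.000490) and Asl by 0.45 ± 0.09 (0.0122). These were 5 of 8 tested genes, beside 4.85% of all tested genes called higher, and 0 were lower, beside 5.3%. Each was higher in 3 of 3 libraries, an arrangement that 14.9% of all tested genes showed. Asl did not pass without LPS+Pilo replicate 3 (limma, adjusted p = 0.0546; range 0.0115 to 0.0546 over the alternatives). Ass1 (0.01 ± 0.13), Slc7a2 (0.07 ± 0.23) and Idh1 (-0.31 ± 0.18) did not pass, with limma adjusted p of 0.968, 0.888 and 0.340. The median was 0.71 over the 8 genes and 0.02 over all genes tested. Here too the count and the median include Nos2, whose difference from Control is tied to the filter.

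The order of the groups thus differed between genes. For Gch1 and Odc1 it was Control, LPS, LPS+Pilo, with no overlap between neighbours, although the upper step did not pass the test for either. For Acod1 it was Control, LPS+Pilo, LPS, with overlap between the upper pair. For Asl, Control and LPS overlapped and LPS+Pilo stood above both. Nos2 separated Control from the treated groups, which overlapped. For Ass1, Slc7a2 and Idh1, LPS+Pilo overlapped both of the other groups.

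**Figure D2:**
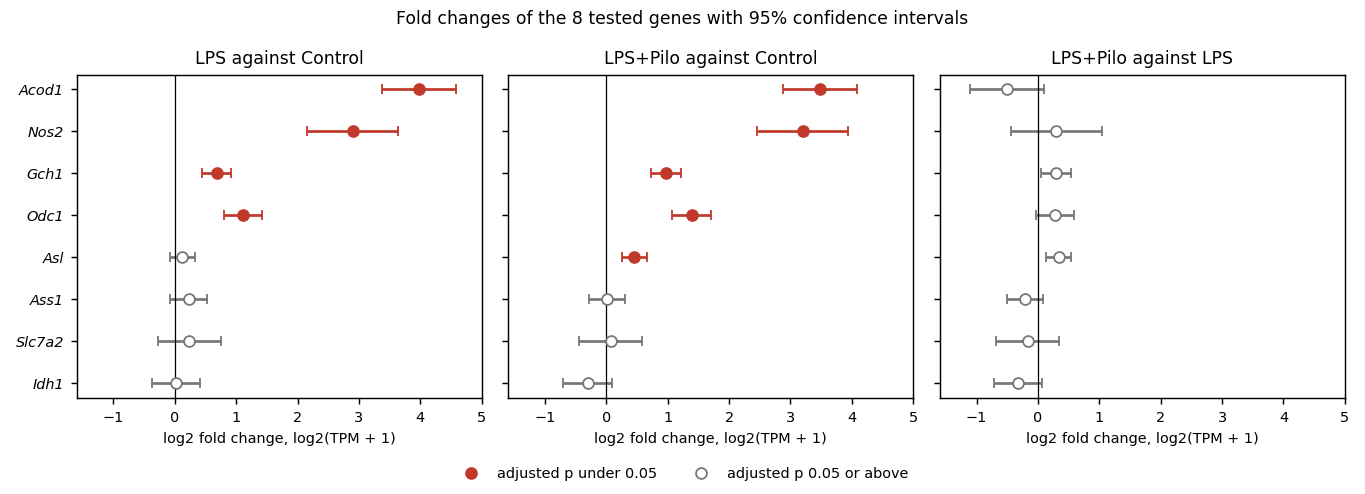
Log2 fold changes of the 8 tested genes with 95% confidence intervals in the 3 comparisons, on the log2(TPM + 1) scale; filled red points were called. Acod1 and Nos2 lie farthest from 0 against Control (3.98 and 2.90 for LPS), and no point is filled for LPS+Pilo against LPS.

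Beyond these genes, 98 genes of 8 lists on the same pathways were examined, of which 97 were in the table and 71 were tested. With LPS 3 were higher, 3 lower and 65 did not pass. For LPS+Pilo against Control the counts were 5, 4 and 62, and for LPS+Pilo against LPS 0, 0 and 71 (5 higher and 2 lower at an unadjusted p under 0.05 in limma). The share called among all tested genes was 7.76% with LPS and 10.2% for LPS+Pilo against Control. In limma at unadjusted p under 0.05, 8 of the 71 were higher and 14 lower with LPS, against 1384 and 1176 of 11260. For LPS+Pilo against Control 7 were higher and 15 lower, against 1308 and 1390. The median of the 71 was 0.00 or 0.01 in each comparison.

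Of the 8 tested genes of other nitric oxide synthases, tetrahydrobiopterin and DDAH, 0 passed in any comparison in limma. At an unadjusted p under 0.05 the counts were 0 with LPS, 1 higher for LPS+Pilo against LPS and 1 lower for LPS+Pilo against Control, and the median with LPS was -0.08. Spr encodes sepiapterin reductase, the last step of tetrahydrobiopterin synthesis. It was at 160 to 164 TPM in Control, 151 to 155 in LPS and 165 to 189 in LPS+Pilo. Its difference between LPS+Pilo and LPS was 0.23 ± 0.08 (limma, unadjusted p = 0.0120, adjusted p = 0.533). Gchfr, which encodes the feedback regulator of GTP cyclohydrolase, ranged from 6.24 to 11.2 TPM. Pts, the gene of the intermediate step, was at 11.4 to 12.3 TPM in Control, 8.45 to 10.4 in LPS and 7.94 to 11.1 in LPS+Pilo. Its difference between LPS+Pilo and Control was -0.38 ± 0.15 (limma, unadjusted p = 0.0308, adjusted p = 0.156). Nos1, the neuronal synthase gene, lay under the filter, at 0.71, 0.82 and 0.67 TPM in Control, 0.24, 0.25 and 0.18 TPM in LPS and 0.23, 0.22 and 0.26 TPM in LPS+Pilo. Its treated libraries were all below Control, the opposite side from Nos2. In the limma fit without a filter, over 21250 genes, Nos1 fell by 0.50 ± 0.05 with LPS (adjusted p = 0.00228) and by 0.49 ± 0.05 with LPS+Pilo (adjusted p = 0.00204), where 1.74% and 2.47% of all genes were called lower. This gene was singled out after its values were seen. Nos3, the endothelial synthase gene, was listed at 0 in all 9 libraries. So were the soluble guanylate cyclase genes Gucy1a1, Gucy1a2 and Gucy1b1, whose product is the classical nitric oxide receptor. Adh5, which encodes an enzyme that removes nitrosoglutathione, was the only tested gene of the nitric oxide signalling list and did not pass (52.7 to 76.6 TPM).

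Among 6 tested transporter genes 1 was higher with LPS and 2 higher and 1 lower for LPS+Pilo against Control. Of all tested genes 4.12% were called higher with LPS, and 4.85% higher and 5.3% lower for LPS+Pilo against Control. Slc3a2, the heavy chain shared by several amino acid exchangers, went from 213 TPM in Control to 281 in LPS and 321 in LPS+Pilo. Its change with LPS was 0.39 ± 0.10 (limma, adjusted p = 0.0383), and with LPS+Pilo 0.59 ± 0.10 (0.00468). The LPS call was lost without any 1 of 8 libraries, Control replicates 1 (0.0535), 2 (0.123) and 3 (0.1004), LPS replicates 1 (0.117) and 2 (0.143) and LPS+Pilo replicates 1 (0.0613), 2 (0.0625) and 3 (0.0632). Over all alternatives this adjusted p lay between 0.00508 and 0.143. Slc25a29, a mitochondrial carrier of basic amino acids, rose in LPS+Pilo against Control by 0.92 ± 0.17 (1.68 to 4.07 TPM; limma, adjusted p = 0.00936). It was at 2.78 TPM in LPS, and neither LPS against Control (0.51) nor LPS+Pilo against LPS (0.41) passed. Slc7a8, a neutral amino acid transporter gene, fell in LPS+Pilo against Control by 0.65 (21.3 to 13.2 TPM, with 18.7 in LPS; limma, adjusted p = 0.0218). That call was lost without Control replicates 1 (0.0549) and 3 (0.0910), each alone, and without LPS+Pilo replicate 1 (0.0602), 2 (0.0855) or 3 (0.0681), in a range of 0.00182 to 0.0910.

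Of 7 tested urea cycle, ornithine and proline genes 1 was lower in both comparisons with Control. Of all tested genes 3.64% were called lower with LPS and 5.3% for LPS+Pilo against Control. Gamt, which encodes the methyltransferase that completes creatine synthesis, was at 26.5, 25.2 and 25.7 TPM in Control, at 8.71, 9.67 and 12.01 TPM in LPS and at 9.00, 10.3 and 9.11 TPM in LPS+Pilo. It fell by 1.28 ± 0.13 and by 1.36 ± 0.13 (limma, adjusted p = 0.000353 and 0.000193). Gatm, which encodes the arginine-using first enzyme of creatine synthesis, was listed at 0 in all libraries, as were the urea cycle genes Otc and Nags. Oat, which links ornithine to proline, did not pass (48.8 to 76.4 TPM).

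Of the 14 other polyamine genes tested, 0 passed with LPS (2 higher and 2 lower at an unadjusted p under 0.05 in limma), with a median of 0.01. Srm, the spermidine synthase gene, was at 1320.6 to 1502.6 TPM in all libraries. For LPS+Pilo against Control 1 was higher, beside 4.85% of all tested genes. Smox, which encodes spermine oxidase, went from 29.9 to 50.03 TPM (0.73 ± 0.11; limma, adjusted p = 0.00297). With LPS alone Smox did not pass (0.35, adjusted p = 0.0855 in limma). Azin1, which encodes the inhibitor that protects ornithine decarboxylase from antizyme, ranged from 14.9 to 39.9 TPM and did not pass. Oaz1, the antizyme gene, did not pass either (-0.24 with LPS, adjusted p = 0.0699 in limma).

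On the citrate side, 2 of 15 tested genes were lower with LPS and 1 for LPS+Pilo against Control, with 0 higher. Of all tested genes 3.64% and 5.3% were called lower. At an unadjusted p under 0.05 in limma, 7 of the 15 were lower and 1 higher with LPS. For LPS+Pilo against Control 5 were lower and 0 higher. Of all 11260 genes 1176 and 1390 were lower at that threshold. The median of the list with LPS was -0.17. Idh2, the mitochondrial NADP-dependent isocitrate dehydrogenase gene, fell by 0.40 ± 0.08 with LPS (196 to 148 TPM; limma, adjusted p = 0.0181), and Idh3g, a subunit of the NAD-dependent enzyme, by 0.41 ± 0.10 (283 to 213 TPM; adjusted p = 0.0311). Idh3g also fell in LPS+Pilo, by 0.42 ± 0.10 (limma, adjusted p = 0.0236). The Idh2 call was lost without Control replicate 3 (0.0739) or LPS replicate 2 (0.0530), in a range of 0.00871 to 0.0739. The Idh3g call with LPS was lost without any 1 of Control replicates 2 (0.0880) and 3 (0.123), LPS replicates 1 (0.0946) and 2 (0.0703) and LPS+Pilo replicate 3 (0.0549), in a range of 0.0183 to 0.123. That with LPS+Pilo was lost without Control replicate 2 (0.0647) or 3 (0.0914) or LPS+Pilo replicate 2 (0.0910) or 3 (0.0736), in a range of 0.0158 to 0.0914.

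Genes of itaconate breakdown, transport and sensing did not pass with LPS (0 of 8). At an unadjusted p under 0.05 in limma, 3 of the 8 were lower and 0 higher, against 1176 lower of all 11260 genes. For LPS+Pilo against Control 4 of the 8 were lower and 0 higher at that threshold, against 1390 lower of all 11260. In LPS+Pilo against Control 1 was lower, beside 5.3% of all tested genes. Keap1, the sensor modified by itaconate, fell by 0.49 ± 0.11 (25.2 to 17.7 TPM; limma, adjusted p = 0.0183). The call was lost without Control replicate 1 (0.0508) or 3 (0.0714) or LPS+Pilo replicate 2 (0.0772) or 3 (0.0596), in a range of 0.00493 to 0.0772. Keap1 was at 19.9 TPM in LPS, and neither LPS against Control (-0.33) nor LPS+Pilo against LPS (-0.16) passed. Clybl, which encodes a lyase of itaconate breakdown, did not pass. It was at 19.7 to 21.3 TPM in Control, 12.6 to 16.8 in LPS and 11.6 to 16.8 in LPS+Pilo.

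Of 12 tested genes of transcription factors known to act at Acod1 or Nos2, 2 were higher with LPS and 2 in LPS+Pilo against Control, with 0 lower. Of all tested genes 4.12% and 4.85% were called higher, and 3.64% and 5.3% lower. At an unadjusted p under 0.05 in limma 3 of the 12 were higher and 0 lower with LPS, against 1384 and 1176 of 11260 genes. For LPS+Pilo against Control 3 were higher and 2 lower, against 1308 and 1390. Cebpd, a C/EBP factor gene, was at 11.7, 10.9 and 10.9 TPM in Control, 59.5, 50.5 and 44.2 in LPS and 39.5, 41.04 and 45.9 in LPS+Pilo. It rose by 2.10 ± 0.12 with LPS and by 1.83 ± 0.12 with LPS+Pilo (limma, adjusted p = 9.62e-06 and 2.08e-05). Cebpb rose in LPS+Pilo against Control by 1.17 ± 0.21 (99.8 to 225 TPM; limma, adjusted p = 0.00829). It was at 152 TPM in LPS, and neither LPS against Control (0.58) nor LPS+Pilo against LPS (0.58) passed. Nfkb1, which encodes the p50 precursor of NF-kB, rose with LPS by 0.78 ± 0.18 (25.9 to 45.6 TPM; limma, adjusted p = 0.0305). That call was lost without any 1 of Control replicates 2 (0.0982) and 3 (0.1198), LPS replicates 1 (0.106) and 2 (0.117) and LPS+Pilo replicates 2 (0.05003) and 3 (0.0541), in a range of 0.000728 to 0.1198. Irf1, an interferon-response factor gene linked to Nos2 induction, did not pass (-0.40 with LPS, adjusted p = 0.262 in limma). It was at 12.3 to 19.1 TPM in Control and 8.35 to 11.7 in LPS+Pilo, without overlap (-0.67). Irf8, at 41.65 to 46.28 TPM in Control and 35.74 to 37.61 in LPS+Pilo, did not overlap or pass either (-0.27).

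**Figure D3:**
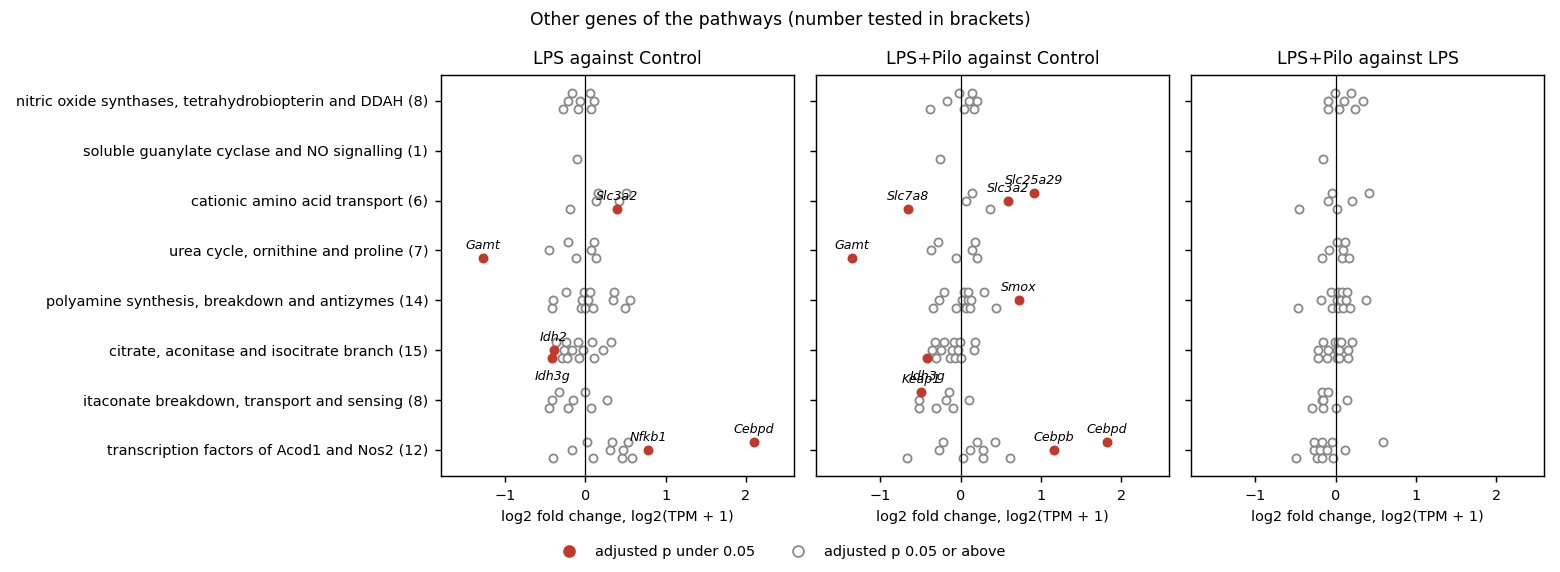
Log2 fold changes of the tested genes of the 8 pathway lists (1 point per gene, list size in brackets) on the log2(TPM + 1) scale; filled red points were called and named. Cebpd (2.10 with LPS) and Gamt (-1.28) lie farthest from 0, and no gene is filled for LPS+Pilo against LPS.

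The genes whose log2(TPM + 1) followed Acod1 most closely over the 9 libraries, among 7862 candidates, were Tnip1 (Pearson r = 0.995), Lilr4b (0.994), Socs3 (0.994), Procr (0.993) and Nfkbia (0.992). TNIP1 and the inhibitor encoded by Nfkbia restrain NF-kB signalling, and SOCS3 restrains cytokine receptor signalling. For Nos2 they were Sbno2 (0.989), Ifitm6 (0.987), Impdh1 (0.987), Csf3 (0.984) and Pla2g5 (0.983). Csf3 encodes a granulocyte growth factor, and Impdh1 an enzyme of guanine nucleotide synthesis. The points share libraries and fall into Control and treated clusters, so r includes that separation. Over the 6 treated libraries alone r was 0.873, 0.969, 0.845, 0.723 and 0.918 for the Acod1 set, and 0.890, 0.935, 0.880, 0.884 and 0.858 for the Nos2 set. The genes were picked by r over all 9 libraries, which include these 6. These values are therefore no independent check of the likeness. Csf3 was listed at 0 in all Control libraries. Lilr4b has the close paralog Lilrb4a, so its values are uncertain.

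**Figure D4:**
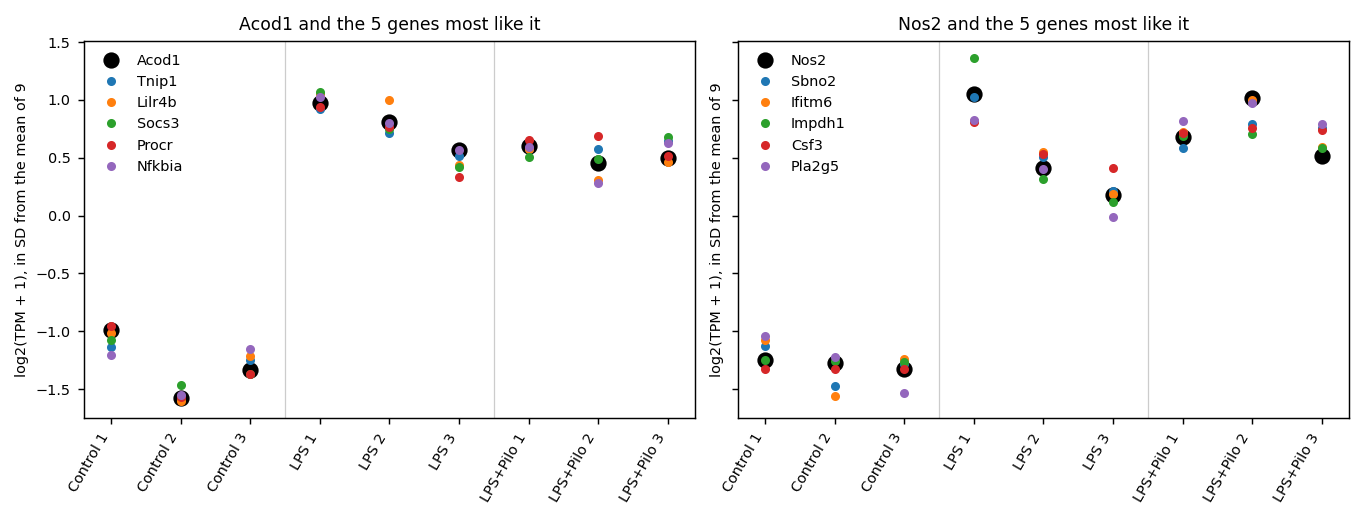
log2(TPM + 1) of Acod1 and of Nos2 (large black points) and of the 5 genes most like each, in standard deviations from the mean of the 9 libraries, by library. Acod1 and its 5 genes are each highest in LPS replicate 1, and for Nos2 and its 5 genes the LPS and LPS+Pilo libraries overlap.

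Across the series, 874 genes were called with LPS (464 higher and 410 lower; 614 and 902 under quantile normalization), 1143 for LPS+Pilo against Control and 5 for LPS+Pilo against LPS. The myeloid markers Cd68 (975.6 to 1218.9 TPM) and Tyrobp (657 to 1295.6 TPM) were abundant in every library, whereas the microglia marker gene Aif1 was at 0.07 to 1.36 TPM and Cx3cr1 at 1.04 to 4.57 TPM. The 10 myeloid markers summed to 2821 to 3150.4 TPM in Control, 2347 to 2532 in LPS and 2189 to 2193 in LPS+Pilo, a sum made up largely of Cd68 and Tyrobp. Against Control the markers did not move as one. With LPS 1 of 10 was higher, Itgam (10.9 to 35.4 TPM; 1.58 ± 0.26; limma, adjusted p = 0.00608), and 2 were lower, Fcgr3 and Tyrobp. For LPS+Pilo against Control 1 was higher, again Itgam, and 4 were lower, Csf1r, Fcgr3, Cx3cr1 and Tyrobp. Of all tested genes 4.12% were called higher and 3.64% lower with LPS, and 4.85% and 5.3% for LPS+Pilo against Control. For LPS+Pilo against LPS 0 of 10 passed. At an unadjusted p under 0.05 in limma 5 were lower and 0 higher there, against 419 and 342 of 11260 genes. The median in that comparison was -0.23 over the markers and -0.05 over all genes tested. The part of the markers in the results was not tested. Of 27 markers of other cell types 25 were under 1 TPM in all libraries and 13 at 0. The exceptions were Tubb3 (164 to 457 TPM), a neuronal tubulin gene, and Mbp (3.94 to 6.57 TPM), and neither passed in any comparison. Tubb3 was at 164 to 367 TPM in Control, 306 to 403 in LPS and 383 to 457 in LPS+Pilo. Its LPS+Pilo libraries lay above every Control library, an arrangement that 14.9% of all tested genes showed.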

How the data were processed

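RNA of 9 BV2 libraries was extracted with TRIzol and prepared with a TruSeq RNA kit, per the labels' protocols. The authors deposited 1 table of TPM with 2 decimals. Build GRCm39 and the tools DESeq2 1.24.0, STAR 2.7.1a and fastp 0.19.5 are named, per the submitters' processing notes. The sources used here do not give the program for TPM, the annotation or the strand setting. TPM are shares, so a rise in abundant genes lowers the rest. They hold no read counts, so depth is unknown.

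Symbols came from GENCODE M21 (52081 of 55906 genes). A single limma 3.58.1 fit (R 4.3.3) used all 9 libraries on log2(TPM + 1), with a variance trend, no block and 6 residual degrees of freedom. Tests were two-sided, with 95% intervals, and the fit was tested on simulated data. Alternatives were pseudocounts of 0.1 and 0.5, no filter, a 5 TPM filter, quantile normalization, only the 2 groups compared, a replicate block and each library left out.

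All members were named, with up to 4 called genes per pathway list (1 TPM or more on average in the higher group) and the 5 genes most like Acod1 and Nos2 (5 TPM or more in the highest group). Further genes were chosen after their values were seen. Of 145 list entries, Pycr3 was not matched. Members, lists and rules were chosen with earlier results of these data known. Promoters were read from RefSeq sequences of GRCm38.p6. The result for 1 list gene is not reported here.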

Additional observations from a re-analysis of the deposited data

How the results depend on the processing

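Each member kept its call or lack of one in every comparison and alternative, except Asl for LPS+Pilo against Control without LPS+Pilo replicate 3 and Slc7a2, which was called with LPS when Control replicate 1 and LPS replicate 3 were both left out (0.64, limma adjusted p = 0.0165). Slc7a2 was not tested at 5 TPM. Leaving out single libraries gave 4 members called with LPS each time, 0 for LPS+Pilo against LPS and 4 to 5 for LPS+Pilo against Control. Counts over all genes moved more: 414 to 1020 with LPS, 0 to 6 for LPS+Pilo against LPS and 642 to 1286 for LPS+Pilo against Control. Quantile normalization gave 1516, 1 and 1726 genes, and leaving out both libraries named above 3586, 18 and 1967. Fitting only LPS and Control gave 483 with LPS, and no filter gave 1 for LPS+Pilo against LPS. Other pathway genes called with LPS numbered 11 under quantile normalization, 2 with only those groups and 28 without both libraries, and for LPS+Pilo against Control 18 and 15 under the first and last of these. Single libraries left out gave 2 to 7 and 6 to 11. The cause was not tested. Signs turned only where values were near 0. For Idh1 with LPS the value was -0.077 under quantile normalization and -0.15 to 0.16 with single libraries left out. For LPS+Pilo against Control, Ass1 was -0.012 under quantile normalization, -0.0050 without both libraries and -0.065 to 0.13 with single ones left out, and Slc7a2 -0.075 to 0.25.

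The replicate numbers are shared between groups, and the sources used here do not say whether a number marks a shared day or culture. Deviations from the group means correlated at -0.225 to 0.165 between same-numbered libraries (2 of 9 pairs over 0.1). Between differently numbered libraries they correlated at -0.37 to 0.30 (2 of 18 pairs over 0.1). With 3 libraries per group these correlations cannot decide whether the numbers mark pairs. With the replicate block the counts were 808 with LPS, 1 for LPS+Pilo against LPS and 1064 for LPS+Pilo against Control, and 4, 0 and 5 members were called. The block ended the LPS calls of Slc3a2 (0.0563) and Idh3g (0.0510). Without a filter Slc3a2 (0.0689), Idh3g (0.0577) and Nfkb1 (0.0769) lost theirs, and with only the LPS and Control libraries Slc3a2 (0.104), Idh3g (0.0551), Nfkb1 (0.0861) and Idh2 (0.0533) did.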

Other observations

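Sugct, which encodes a transferase able to attach coenzyme A to dicarboxylic acids, was at 22.1 TPM in LPS replicate 2 and between 0.06 and 0.32 TPM in the 8 other libraries. No other library of any group came near that value.

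Slc7a7, which encodes a light chain of cationic amino acid exchange, was under the filter as well, at 0.4 to 0.99 TPM in Control, 0.63 to 0.95 TPM in LPS and 0.96 to 2.11 TPM in LPS+Pilo. In the fit without a filter its difference between LPS+Pilo and LPS was 0.50 ± 0.20 (limma, unadjusted p = 0.0417, adjusted p = 0.841).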
